A study of Mus musculus with 10 samples.

Results

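Convergent beta CDR3s are receptor beta-chain junctions whose V gene, J gene and amino acid sequence were the same in 1 library but were written by 2 or more different nucleotide sequences. They were picked from the 10 clonotype tables by taking every entry whose CDR3 ended in one of 10 beta-chain J ends and keeping the V, J and amino acid combinations with at least 2 nucleotide sequences in the same table. This gave 3847 convergent CDR3s among 188860 beta CDR3s, each counted once per library, or 3337 different combinations over all libraries. Of the 3847, 3578 were written by 2 sequences, 236 by 3, 30 by 4 and 3 by 5. The number of sequences per CDR3 chose the members, so it is a description here, and so is every value read from the same entries, such as length, gene use, inserted bases and clone size, when members are set beside the other 185013 beta CDR3s. The values just inside and just outside the rule were 2 sequences and 1 sequence per CDR3.

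The libraries came from regulatory T cells (Tregs) of mouse spleen, taken to RNA directly after isolation and with no treatment. Of the 10 libraries, 5 were of strain CNS4KO, labelled KO, which lacks CNS4, a distal enhancer of Foxp3, whose product is the lineage transcription factor of Tregs. The other 5 were of strain CNS4Flox, labelled WT, in which the enhancer is flanked by recombination sites. Age, how the deletion was made, the number of cells and whether each library is a separate mouse are not given in the sources used here, so the p-values measure the spread between these libraries, which may in part be technical. Receptor sequences hold no Foxp3 reading and no other cell marker, so neither the deletion nor the Treg identity could be checked from the tables. A pair of libraries, CNS4KO replicate 5 and CNS4Flox replicate 3, stood apart before any comparison. They had 821 nucleotide clonotypes in common against 96 to 262 in the other 44 pairs. Several results, though not all, are given with and without them.

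T-cell receptor beta chains are assembled in the thymus by joining a V, a D and a J gene segment, and the join is the CDR3, the loop that contacts the peptide held by an MHC molecule. At each join, bases are trimmed from the segment ends and untemplated bases are added by the enzyme TdT, which makes most junctions differ between cells. Because several codons stand for the same amino acid, separate cells can arrive at the same protein junction by different joins, which is called convergent recombination and is known for junctions close to the unmodified gene segments.

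The nucleotide sequences below are up to 4 of the most abundant of the 3 CDR3s that were convergent in the most libraries, shown because they let the differences be read directly. They are written 5′ to 3′ from the codon of the conserved cysteine to that of the final phenylalanine, and capitals mark the positions at which the printed sequences of a CDR3 differ. The first is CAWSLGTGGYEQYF, with TRBV31 and TRBJ2-7.
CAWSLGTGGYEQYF sequence 1: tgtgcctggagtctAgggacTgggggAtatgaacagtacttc
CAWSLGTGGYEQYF sequence 2: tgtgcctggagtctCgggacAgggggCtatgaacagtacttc
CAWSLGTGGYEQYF sequence 3: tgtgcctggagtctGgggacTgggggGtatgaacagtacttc
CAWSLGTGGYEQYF sequence 4: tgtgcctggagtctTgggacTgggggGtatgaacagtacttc
The second is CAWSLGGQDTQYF, with TRBV31 and TRBJ2-5.
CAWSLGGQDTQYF sequence 1: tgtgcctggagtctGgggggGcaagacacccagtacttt
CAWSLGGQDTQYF sequence 2: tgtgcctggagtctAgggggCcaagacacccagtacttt
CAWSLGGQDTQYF sequence 3: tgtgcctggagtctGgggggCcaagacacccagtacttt
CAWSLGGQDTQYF sequence 4: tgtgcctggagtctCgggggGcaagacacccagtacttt
The third is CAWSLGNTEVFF, with TRBV31 and TRBJ1-1.
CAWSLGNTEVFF sequence 1: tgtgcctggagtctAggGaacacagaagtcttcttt
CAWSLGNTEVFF sequence 2: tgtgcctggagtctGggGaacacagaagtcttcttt
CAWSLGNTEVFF sequence 3: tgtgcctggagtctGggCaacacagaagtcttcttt
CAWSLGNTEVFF sequence 4: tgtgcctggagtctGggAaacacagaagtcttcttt

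In all printed sequences of these 3 CDR3s the match to TRBV31 ended at base 14, counted from 1 at the first base of the cysteine codon. The next base, base 15, is the last of the leucine codon and was the position that all 3 CDR3s had in common as variable. Set against sequence 1 of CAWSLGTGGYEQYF, sequence 2 carried A15C, T21A and A27C, sequence 3 carried A15G and A27G, and sequence 4 carried A15T and A27G, where the first letter is the base of sequence 1. The substitution T21A changed the last base of a threonine codon and went with a change of the named D gene, from TRBD2 in sequence 1 to TRBD1 in sequence 2. In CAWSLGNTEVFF, sequence 2 differed by A15G alone, and sequences 3 and 4 added G18C and G18A in the glycine codon. None of the printed substitutions changes the protein, since the rule requires the same amino acid sequence.

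The next CDR3 was the first by number of sequences in 1 library among the CNS4Flox libraries, and shows how far the writing of a junction could vary within a library. In CNS4Flox replicate 5, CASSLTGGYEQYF with TRBV15 and TRBJ2-7 was written in 5 ways, of which the 4 most abundant are printed.
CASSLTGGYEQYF sequence 1: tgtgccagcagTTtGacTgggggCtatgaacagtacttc
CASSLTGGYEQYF sequence 2: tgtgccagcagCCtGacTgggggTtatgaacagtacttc
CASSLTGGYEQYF sequence 3: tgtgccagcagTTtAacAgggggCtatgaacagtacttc
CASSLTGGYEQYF sequence 4: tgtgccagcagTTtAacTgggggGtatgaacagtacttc
The counts of these printed sequences were 3, 2, 1 and 1. In the CNS4KO libraries no CDR3 had more than 4 sequences, and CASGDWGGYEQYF, with TRBV13-2 and TRBJ2-7, was one that had 4, in CNS4KO replicate 4, with 9 counts of which its largest sequence held 6. In sequence 2 of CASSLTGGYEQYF, T13C changed the first base of the leucine codon, together with T12C in the serine codon before it, so the TRBV15 match ended at base 11 there and at base 14 or 15 in the other printed sequences.

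The nucleotide sequences of convergent CDR3s differed mostly between the V and the J match, the stretch made of D and inserted bases. Of 6906 differing positions over the 3847 convergent CDR3s, 6513 (94.3%) lay between the V and J matches shared by all sequences of the CDR3, although that stretch holds only 21.1% of their bases. The V match held 297 differing positions, which is 0.563% of its bases, and the J match 96, or 0.141% of its bases, against 20.2% of the bases in between. The match ends were read from the same sequences, and a difference at a gene's end shortens the match, so this split is a description. Of the convergent CDR3s, 289 (7.51%) had a difference inside the V match and 95 (2.47%) inside the J match.

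**Figure D1:**
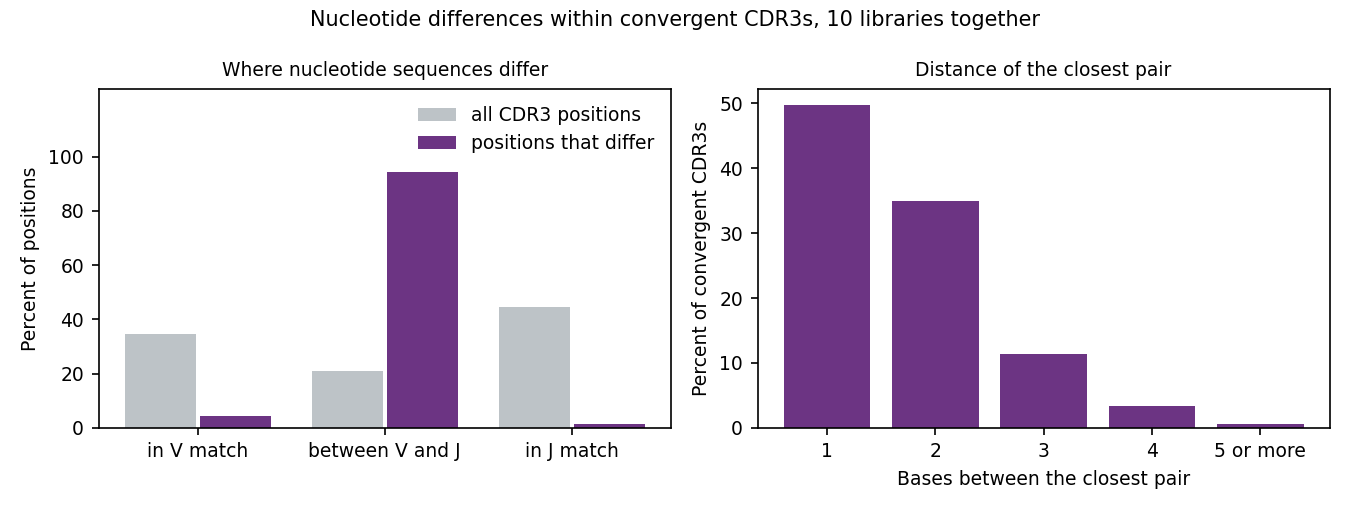
Where and by how much the sequences of convergent CDR3s differ, over the 10 libraries together. The left panel gives the percent of all CDR3 positions (grey) and of differing positions (purple) in the V match, between the V and J matches and in the J match, and the stretch in between holds 94.3% of the differing positions. The right panel gives the percent of convergent CDR3s by the number of bases between their closest pair of sequences, 49.7% at 1 base and 34.96% at 2.

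The closest pair of sequences was 1 base apart in 1913 convergent CDR3s (49.7%), 2 bases apart in 1345 (34.96%), 3 apart in 436 and 4 apart in 128, and 25 were 5 or more bases apart. The last base of a codon held 87.7% of the differing positions, its first base 10.6% and its middle base 1.72%, an order that the demand for an unchanged protein favours by itself. Glycine, for which any base may stand last and which every reading frame of the mouse D segments encodes, was the residue of 2100 of 6504 differing codons (32.3%). Leucine, serine and arginine, each with 6 codons, followed with 951, 847 and 738 differing codons. Glycine also made up 46.0% ± 2.07 (SD, n = 10 libraries) of the residues between the matches in convergent CDR3s and 35.1% ± 0.350 in the other beta CDR3s, and was higher in all 10 libraries. Proline (3.95% against 5.99%), serine (2.59% against 4.03%) and alanine (2.30% against 3.79%) were lower there in 10 of 10 libraries.

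In 2246 convergent CDR3s (58.4%) the sequences ended their V or J match at different bases, and in 806 (20.95%) they were named with different D genes, or with and without one. A sequence 1 base from a far more abundant one can come from a copying or reading error. There were 18 convergent CDR3s (0.468%) that had a largest sequence with at least 10 times the count of the smallest. Leaving out every sequence that lay 1 base from a sequence with at least 10 times its count removed 25 clonotypes and left 3838 convergent CDR3s. In 2191 (57.0%) every sequence had a count of 1, so at that depth an error and a separate cell cannot be told apart, and 266 (6.91%) had at least 2 counts in every sequence.

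The number of convergent CDR3s per library followed the depth. Beta counts ranged from 19199 to 34833 per library and distinct beta clonotypes from 13786 to 24496, with overlapping groups. The CNS4KO libraries held 299, 229, 271, 498 and 532 convergent CDR3s in the order of their replicate numbers, and the CNS4Flox libraries 336, 506, 568, 305 and 303. These were 1.68% to 2.44% of the beta CDR3s of a CNS4KO library and 1.74% to 2.38% of those of a CNS4Flox library, with most of both ranges in common. Over the 10 libraries the number of convergent CDR3s and of distinct beta clonotypes went together, with Pearson's r of 0.965 and Spearman's rho of 0.939, and r was 0.959 without the 2 libraries farthest from the median. That relation is in part built in, since more clonotypes make more pairs.

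Numbers were therefore set side by side at equal depth, as the number expected when entries are drawn at random from each library. Drawn down to the smallest total of 19199 beta counts, the CNS4KO libraries held 188, 229, 187, 223 and 255 convergent CDR3s and the CNS4Flox libraries 276, 241, 259, 268 and 254. At equal counts 4 of the 5 CNS4KO libraries lay below every CNS4Flox library, and CNS4KO replicate 5 lay within the CNS4Flox range. The means were 216.5 ± 29.0 (SD, n = 5) and 259.5 ± 13.3 (SD, n = 5), and p was 0.0238 by a two-sided exact permutation test over the 252 assignments of libraries to groups and 0.0714 after Benjamini-Hochberg adjustment over the 12 values tested.

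Drawn down instead to the smallest number of distinct beta clonotypes, 13786, the order of the groups was the opposite. The CNS4KO libraries then held 224, 229, 194, 228 and 202 and the CNS4Flox libraries 189, 170, 197, 197 and 189. Here 4 of the 5 CNS4KO libraries lay above every CNS4Flox library and CNS4KO replicate 3 lay inside their range. The means were 215.3 ± 16.1 and 188.4 ± 11.2 (SD, n = 5 each), and the exact permutation test again gave p = 0.0238, or 0.0714 after adjustment. Neither difference passed the adjusted threshold of 0.05, and the direction depended on which depth was made equal. Beside this, the CNS4KO libraries had more counts per clonotype outside the convergent CDR3s too, 1.53 ± 0.140 against 1.23 ± 0.0696 (SD, n = 5), and the part of this in either result was not tested. Without CNS4KO replicate 5 and CNS4Flox replicate 3, the differences, CNS4KO minus CNS4Flox, were -52.8 at equal counts and 32.6 at equal clonotypes, with adjusted p of 0.114 and 0.171 in exact tests that have fewer assignments. At 10000 beta counts the difference was -8.50 CDR3s (79.9 against 88.4, adjusted exact permutation p = 0.324), and at 10000 clonotypes it was 14.9 (116.8 against 101.9, adjusted exact permutation p = 0.0952). With clonotypes of count 1 left out, 330 convergent CDR3s were left and both directions turned, to 0.350 and -2.13 CDR3s, with adjusted p of 0.873 and 0.317 by the exact permutation test.

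**Figure D2:**
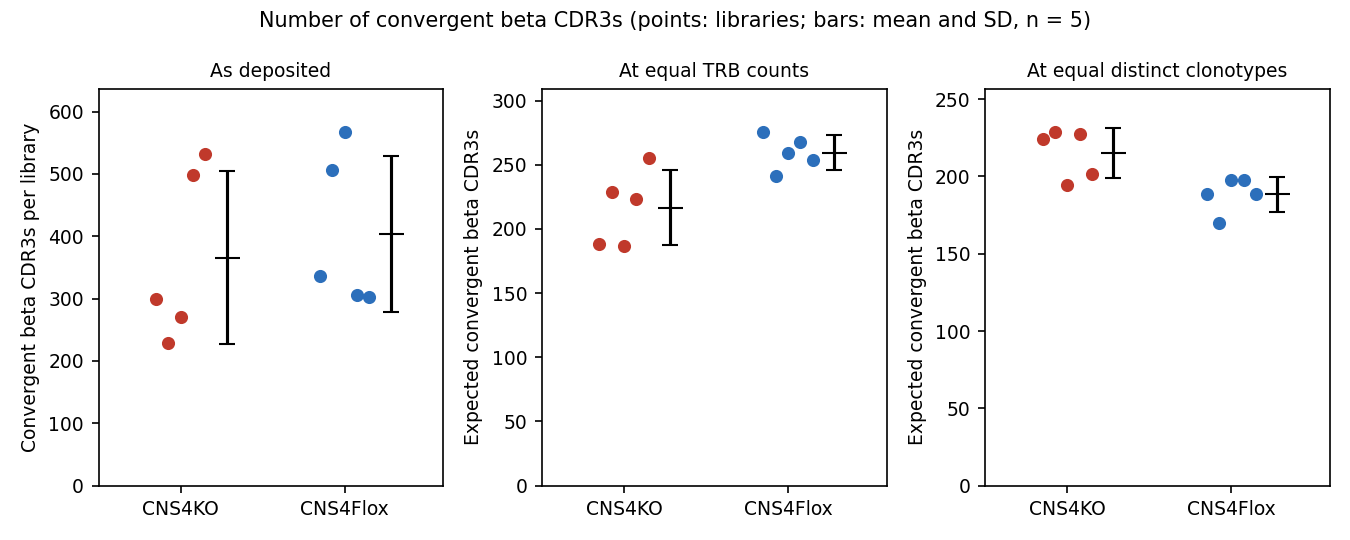
Number of convergent beta CDR3s per library, with a point for each library and the mean and SD of 5 libraries beside them, CNS4KO in red and CNS4Flox in blue. The deposited numbers range from 229 to 568 with overlapping groups, CNS4KO is lower at 19199 beta counts (216.5 against 259.5 on average) and higher at 13786 distinct clonotypes (215.3 against 188.4).

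The share of convergent CDR3s written by 3 or more sequences, at equal clonotypes, was 5.40% ± 1.10 in CNS4KO and 4.85% ± 0.796 in CNS4Flox (SD, n = 5), with overlapping groups and an exact permutation p = 0.389. All 3 CDR3s written by 5 sequences were in CNS4Flox libraries, and the highest number in CNS4KO was 4, reached by 14 CDR3s. The convergent CDR3s held 4.14% ± 0.903 of the beta counts of CNS4KO libraries and 4.27% ± 0.667 of those of CNS4Flox libraries (SD, n = 5), an exact permutation p of 0.762. This share was taken over all deposited counts, not at equal depth. It was 5.16% in CNS4KO replicate 4, the library with the most beta counts, and 3.47% in CNS4KO replicate 2, that with the fewest. The share did not follow the depth throughout. It was lowest, at 3.38%, in CNS4KO replicate 3 with 25161 beta counts, and 3.88% in CNS4Flox replicate 4 with 20854.

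TRBV31, the V gene that lies downstream of the J and constant segments and joins by inversion, wrote more convergent CDR3s than any other V gene. It lies at chr6:41557693-41558371 of mm10, at the far end of the locus, and 752 of the 3847 convergent CDR3s used it. Its share of the convergent CDR3s was 20.4%, 19.2%, 18.1%, 11.8% and 19.7% in CNS4KO and 28.6%, 15.8%, 19.9%, 22.6% and 25.1% in CNS4Flox. In all 10 libraries this was above its share of the other beta CDR3s, with means of 20.1% and 10.7%. The groups overlapped, with CNS4KO replicate 4 the lowest, and the log2 fold change, CNS4KO over CNS4Flox, was -0.32 (SE 0.20, adjusted p = 0.461, edgeR's quasi-likelihood test). It ranged from -0.43 to -0.19 with 1 library left out in turn, and was -0.19 without CNS4KO replicate 4.

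TRBV12-1, of the Vbeta5 family, was second with 340 convergent CDR3s and lies at chr6:41113567-41114067. It wrote 9.03%, 8.73%, 11.8%, 11.8% and 11.7% of the convergent CDR3s in CNS4KO and 6.25%, 7.91%, 5.99%, 9.84% and 4.95% in CNS4Flox. The groups overlapped only through CNS4Flox replicate 4, which lay above 2 CNS4KO libraries. The log2 fold change was 0.63 (SE 0.21, unadjusted p = 0.00565, adjusted p = 0.0792, edgeR's quasi-likelihood test). It was the 1 V gene of 14 tested with an unadjusted p under 0.05, and 0 of 14 passed the adjusted threshold, so percent called was 0, and DESeq2 called 0 with 1 unadjusted as well. TRBV12-1 passed under 4 other settings, with TMM scaling (0.69, adjusted p = 0.0448 by edgeR), with each nucleotide clonotype counted once (0.69, 0.0448), with pairs at least 2 bases apart (0.76, 0.00345) and without CNS4Flox replicate 4 (0.76, 0.0162), while over all settings its adjusted p ran from 0.00345 to 0.306. Without CNS4KO replicate 5 and CNS4Flox replicate 3 it was 0.53 (adjusted p = 0.111 by edgeR), and 4 of the 11 V genes then tested had an unadjusted p under 0.05. Besides TRBV12-1 these were TRBV13-2 (log2 fold change 0.64), TRBV26 (-0.57) and TRBV5 (0.55). Each of them had a larger absolute change than TRBV12-1 and ranked ahead of it in edgeR's quasi-likelihood test. Among the other beta CDR3s the share of TRBV12-1 was higher in CNS4KO too, 6.73% ± 0.498 against 5.17% ± 0.359 (SD, n = 5), and whether the convergent CDR3s differed beyond that was not tested.

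TRBV15 (7.39% of convergent against 5.67% of other CDR3s) and TRBV26 (7.38% against 5.17%) were also above their share of the other CDR3s in all 10 libraries. TRBV26, the Vbeta3 gene, had a share of 6.25% ± 1.11 in CNS4KO and 8.51% ± 1.89 in CNS4Flox (SD, n = 5), with a log2 fold change of -0.44 (SE 0.22, adjusted p = 0.386, edgeR). For TRBV15 the shares were 6.95% ± 1.42 and 7.84% ± 1.66, with a log2 fold change of -0.19 (SE 0.22, adjusted p = 0.595, edgeR). At the other end, TRBV29 made 1.13% of the convergent and 3.36% of the other CDR3s, TRBV13-1 3.18% and 5.88%, TRBV13-3 2.75% and 4.92%, and TRBV2 1.67% and 3.26%, each lower in all 10 libraries. TRBV14, TRBV17, TRBV23 and TRBV24 were lower in all 10 libraries too, and TRBV24 wrote 1 convergent CDR3 in all.

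**Figure D3:**
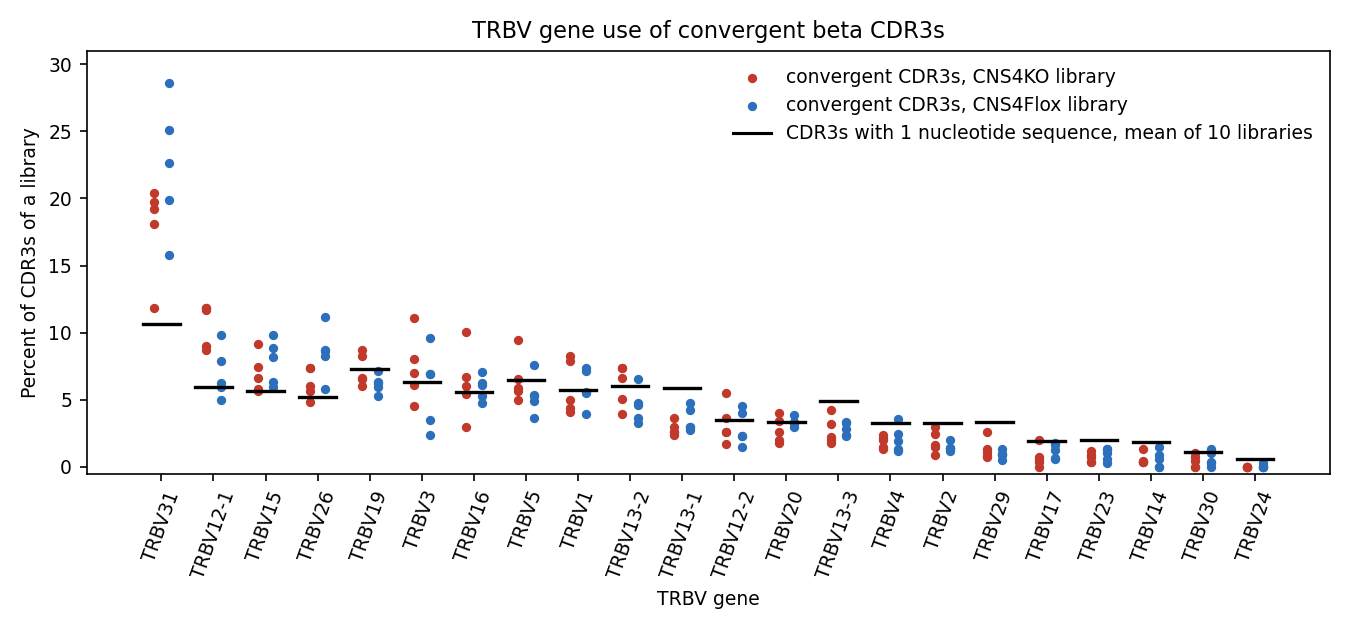
Percent of the convergent CDR3s of a library that used each TRBV gene, with a red point for each CNS4KO and a blue point for each CNS4Flox library, and a black line at the mean share of the gene among beta CDR3s with 1 nucleotide sequence. TRBV31 stands highest, from 11.8% to 28.6%, above its line at 10.7% in every library, and the TRBV12-1 points of CNS4KO lie above most of those of CNS4Flox.

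Among J genes, TRBJ2-7, the last segment of the second J cluster at chr6:41543810-41543856, wrote 1057 convergent CDR3s. Its share was 27.1%, 25.3%, 26.9%, 27.9% and 24.8% in CNS4KO and 30.4%, 30.4%, 28.3%, 23.0% and 28.7% in CNS4Flox. Every library was above its share among the other CDR3s, which averaged 19.3%, and 4 of 5 CNS4Flox libraries were above all CNS4KO libraries while CNS4Flox replicate 4 was below them. TRBJ2-4 followed with 13.8% of convergent and 11.7% of other CDR3s and TRBJ1-1 with 11.3% and 9.21%, each higher in 9 of 10 libraries, and TRBJ2-5 made 12.8% of both. TRBJ1-5 (0.875% against 2.89%), TRBJ1-4 (3.16% against 6.08%), TRBJ1-6 (2.005% against 3.62%), TRBJ2-2 (3.80% against 5.75%) and TRBJ2-1 (8.04% against 10.5%) were lower in all 10 libraries.

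Between the groups 0 of 10 TRBJ genes passed in edgeR's quasi-likelihood test, a percent called of 0, with 0 at an unadjusted p under 0.05 and 0 by DESeq2. The log2 fold changes, CNS4KO over CNS4Flox, were -0.11 (SE 0.08, adjusted p = 0.762) for TRBJ2-7, -0.01 (SE 0.11, adjusted p = 0.932) for TRBJ2-4 and 0.07 (SE 0.12, adjusted p = 0.807) for TRBJ2-5 in edgeR. The smallest p-values belonged to TRBJ1-3 (0.32, SE 0.19) and TRBJ2-2 (-0.41, SE 0.26), both with an adjusted p of 0.547 by edgeR. The most frequent pairs were TRBV31 with TRBJ2-7 (186 convergent CDR3s, 4.83%), TRBV31 with TRBJ2-5 (134) and TRBV12-1 with TRBJ2-7 (101).

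Convergent CDR3s were shorter than the others and had fewer inserted bases in every library. Their mean length was 13.26 ± 0.0529 residues against 13.74 ± 0.0224 in the other beta CDR3s (SD, n = 10), and lengths ran from 9 to 17 residues with 80.9% at 12 to 14. No convergent CDR3 had 18 or more residues, 4 had 17, and 270 had 11 or fewer. The mean length was 13.22, 13.29, 13.29, 13.18 and 13.29 residues in CNS4KO and 13.24, 13.23, 13.35, 13.32 and 13.22 in CNS4Flox. The groups overlapped almost wholly, and the means of 13.25 and 13.27 gave an exact permutation p of 0.571. With clonotypes of count 1 left out, 330 convergent CDR3s were left, with mean lengths of 12.89 in CNS4KO and 13.25 in CNS4Flox. The exact permutation test then gave p = 0.00794, or 0.0952 after adjustment.

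Inserted bases were taken as those that fell outside the V, D and J matches within the junction, each nucleotide clonotype once. Where a D gene is named, the tables always leave at least 1 base between the D and the J match, so counts near 1 are close to a floor. Convergent clonotypes had 2.43 ± 0.137 inserted bases and the others 3.90 ± 0.0432 (SD, n = 10), and 35.8% of convergent against 17.03% of other clonotypes had exactly 1. From 4 bases upward the convergent clonotypes had the smaller share in every library, 8.37% against 16.1% at 4 bases and 3.95% against 11.4% at 5. No D gene could be named in 7.49% ± 1.09 of them against 3.49% ± 0.156 of the others, higher in 10 of 10 libraries.

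The CNS4KO libraries had means of 2.34, 2.36, 2.68, 2.32 and 2.33 inserted bases and the CNS4Flox libraries 2.60, 2.48, 2.57, 2.32 and 2.34. CNS4KO replicate 3 was the highest of all and the groups overlapped, with means of 2.41 ± 0.155 and 2.46 ± 0.128 (SD, n = 5) and an exact permutation p of 0.508. Without CNS4KO replicate 3 the difference went from -0.0547 to -0.124 inserted bases, with p = 0.127 in the exact permutation test and 0.305 after adjustment. Without CNS4KO replicate 5 and CNS4Flox replicate 3 it went to -0.00909, with an adjusted exact permutation p of 0.914. Entries ending in PLYF carry a J name that is not that of their end, which sets their J match late. Without them the convergent clonotypes had 2.17 ± 0.111 in CNS4KO and 2.21 ± 0.0352 in CNS4Flox, and the others 3.44 ± 0.0401 and 3.43 ± 0.0254 (SD, n = 5). With all entries, but with the base that the tables always leave between D and J not counted, the convergent clonotypes averaged 1.48 in CNS4KO and 1.54 in CNS4Flox.

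**Figure D4:**
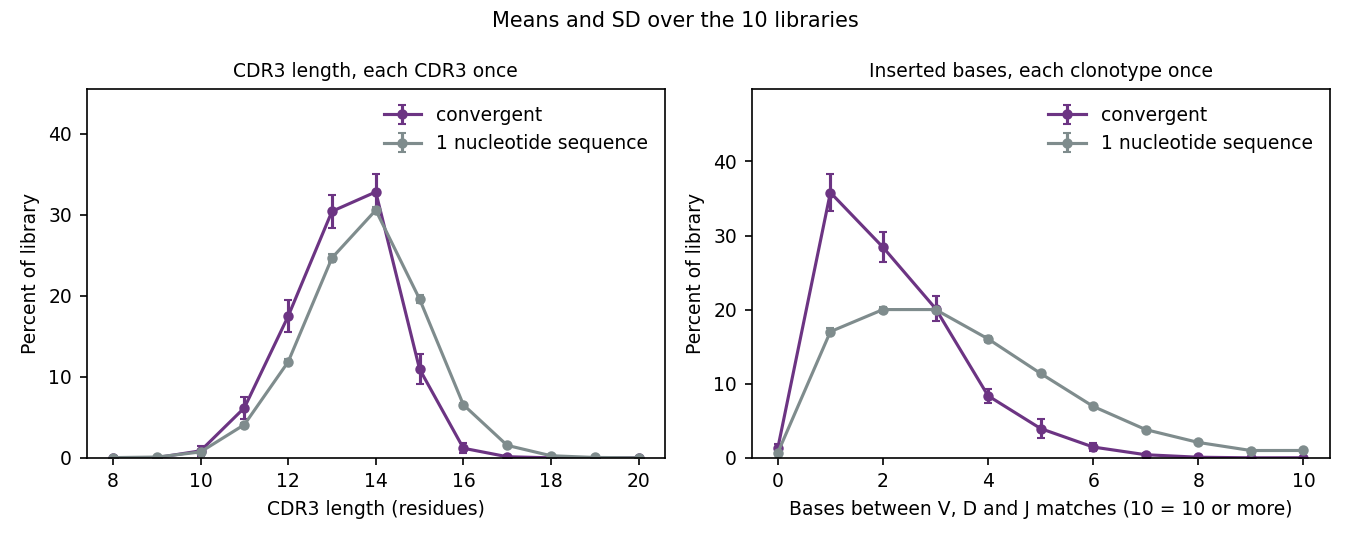
CDR3 length in residues (left, each CDR3 once) and number of inserted bases (right, each nucleotide clonotype once) of convergent CDR3s in purple and of CDR3s with 1 nucleotide sequence in grey, as percent of a library, with points at the mean and bars at the SD of 10 libraries. Convergent CDR3s lie at shorter lengths, with 10.9% at 15 residues against 19.6%, and 35.8% of their clonotypes have 1 inserted base against 17.03%.

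Counts per convergent clonotype were low in both groups, with a higher mean in CNS4KO that did not pass after adjustment. The mean count per convergent clonotype was 1.57, 1.40, 1.52, 1.72 and 1.49 in CNS4KO and 1.20, 1.34, 1.46, 1.29 and 1.28 in CNS4Flox. Of the CNS4KO libraries 4 lay above every CNS4Flox library, and CNS4KO replicate 2 lay below CNS4Flox replicate 3. The means of 1.54 ± 0.118 and 1.31 ± 0.0963 (SD, n = 5) gave p = 0.0159 in the exact permutation test, or 0.0714 after adjustment. Without CNS4KO replicate 5 and CNS4Flox replicate 3 they were 1.56 and 1.28, with an adjusted exact permutation p of 0.114. The percent of convergent clonotypes with a count of 1, the other measure of the same thing, was 70.3% in CNS4KO and 80.3% in CNS4Flox on average (p = 0.00794 in the exact permutation test, 0.0476 after adjustment). The other beta clonotypes moved the same way, with 74.6% ± 4.31 at a count of 1 in CNS4KO and 84.3% ± 3.03 in CNS4Flox (SD, n = 5), so that the difference was not one of convergent CDR3s alone. Whether a count is a read or a molecule is not given in the sources used here, and cell number, RNA per cell and amplification cannot be told apart in it.

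Within a convergent CDR3 the largest sequence held a higher mean share of the counts in CNS4KO, a difference that did not pass after adjustment. The largest sequence held on average 58.4%, 57.2%, 56.9%, 59.1% and 58.4% of the counts of a convergent CDR3 in CNS4KO and 53.5%, 55.1%, 56.2%, 54.8% and 54.9% in CNS4Flox. All 5 CNS4KO libraries lay above all 5 CNS4Flox libraries. The means of 58.0% ± 0.929 and 54.9% ± 0.978 (SD, n = 5) gave p = 0.00794, the smallest that the exact permutation test allows, and an adjusted p of 0.0714 over the 12 values. This measure is tied to the share of clonotypes with a count of 1, given above, since 2 sequences at 1 count each hold equal shares. The adjusted p was 0.0476 in the exact permutation test without CNS4KO replicate 3 and without CNS4KO replicate 5. It was 0.0952 in the same exact permutation test with any other single library left out. The unadjusted exact permutation p was 0.00794 in all of these except without CNS4KO replicate 4 (0.0159). Where the adjusted exact permutation p was 0.0476, the number of convergent CDR3s also had an unadjusted 0.00794, which lowers the adjusted value. This was the number at equal clonotypes without CNS4KO replicate 3 and at equal counts without CNS4KO replicate 5. The lower adjusted value is therefore not a property of this share alone. Without CNS4KO replicate 5 and CNS4Flox replicate 3 together the difference was 3.34 points. The unadjusted p was then 0.0286, the smallest that the exact permutation test over the remaining 8 libraries allows, and the adjusted p was 0.114. With clonotypes of count 1 left out, the difference was 2.90 points, with an adjusted exact permutation p of 0.143.

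The largest convergent CDR3 by share of a library's beta counts in CNS4KO was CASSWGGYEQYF with TRBV17 and TRBJ2-7, with 0.172% of CNS4KO replicate 4. Its 2 sequences differed at 2 bases and had 31 and 29 counts, and it was found in no other library. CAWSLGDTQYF with TRBV31 and TRBJ2-5 followed with 0.135% of CNS4KO replicate 3, in counts of 27 and 7, 1 base apart. In CNS4Flox the largest were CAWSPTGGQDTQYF (0.112% of CNS4Flox replicate 3, counts of 36 and 1, 4 bases apart) and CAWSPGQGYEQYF (0.0910% of the same library, counts of 28 and 2, 1 base apart), both with TRBV31. The smaller sequence of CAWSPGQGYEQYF meets the error filter given above, 1 base from a sequence with at least 10 times its count. These are single examples, and no difference between the groups is read from them.

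In the other measures of the sequences the groups overlapped. The closest pair was 1 base apart in 50.4% ± 0.464 of convergent CDR3s in CNS4KO and 49.4% ± 1.36 in CNS4Flox (SD, n = 5), and the exact permutation test gave p = 0.135, or 0.324 after adjustment. At least 1 difference inside a V or J match was present in 9.65% ± 2.48 and 9.48% ± 1.04 (SD, n = 5), for which the exact permutation test gave p = 0.913.

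Convergent CDR3s of a library were found in the other libraries far more often than the rest. The same V, J and amino acid sequence was present in at least 1 of the other 9 libraries for 67.2%, 71.6%, 69.7%, 69.3% and 72.9% of the convergent CDR3s of the CNS4KO libraries and for 70.5%, 71.5%, 69.4%, 71.1% and 75.9% of those of the CNS4Flox libraries. For the other beta CDR3s the share was 19.1% to 23.1%. The difference was 49.7 percentage points on average (range 46.0 to 55.2) and was in the same direction in 10 of 10 libraries, with p = 0.00195, the smallest that the two-sided exact sign-flip permutation test over 10 libraries allows. Other libraries were not used to choose the members. Libraries share their partners in this comparison, so the 10 differences are not wholly independent of each other.

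The difference held for presence in at least 3 other libraries, 31.5% ± 1.96 of convergent against 3.63% ± 0.406 of other CDR3s (SD, n = 10), and for presence in the other group, 56.5% against 14.7%. The exact nucleotide sequence was found in another library for 21.1% ± 1.36 of convergent clonotypes and 6.23% ± 1.002 of the others. V gene, length and inserted bases differed between convergent and other CDR3s, as described above, and they go with sharing. With the other CDR3s weighted to the V genes and lengths of the convergent ones, their share found elsewhere was 26.3%. With inserted bases weighted as well it was 37.6%, a difference of 33.4 points from the convergent CDR3s. J gene use, which differed too, was not weighted. These weighted comparisons were added after the data were seen. Without CNS4KO replicate 5 and CNS4Flox replicate 3 the difference was 46.4 points over the remaining 8 libraries, with an exact sign-flip permutation p of 0.00781.

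**Figure D5:**
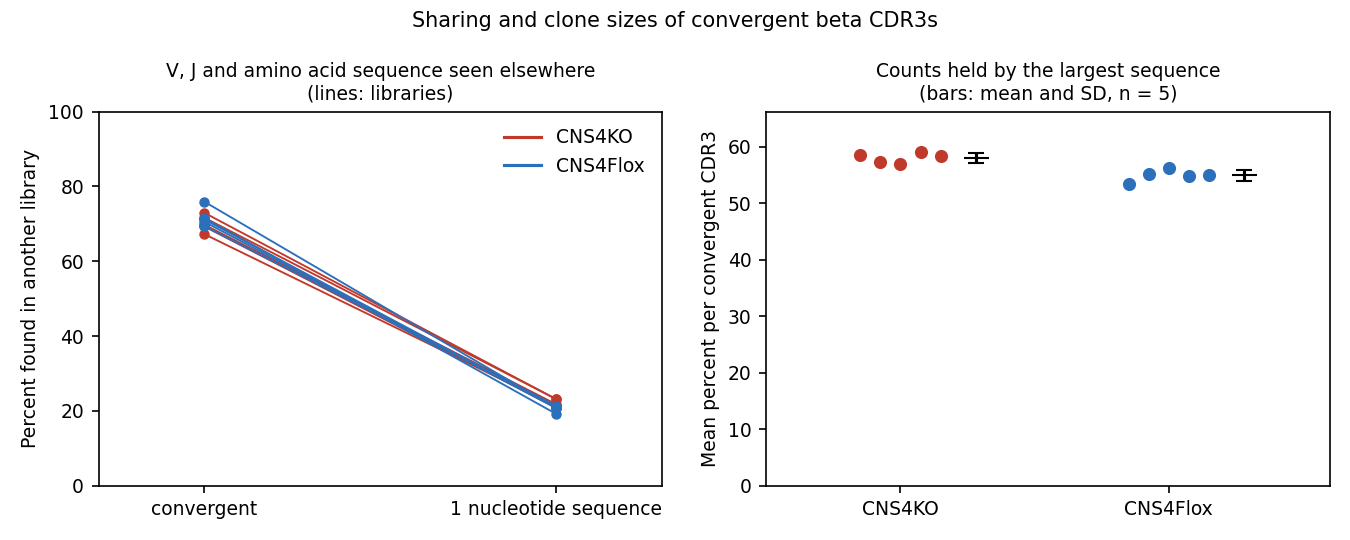
Sharing and evenness of convergent CDR3s, CNS4KO in red and CNS4Flox in blue. The left panel gives for each library (a line) the percent of convergent CDR3s and of CDR3s with 1 nucleotide sequence that were found in another library, near 70.9% and 21.3% on average. The right panel gives for each library (a point, with group mean and SD) the mean percent of a convergent CDR3's counts held by its largest sequence, from 56.9% to 59.1% in CNS4KO and from 53.5% to 56.2% in CNS4Flox.

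The share of convergent CDR3s found in another library was 70.2% ± 2.20 in CNS4KO and 71.7% ± 2.49 in CNS4Flox (SD, n = 5, exact permutation p = 0.357), with overlapping groups. Without CNS4KO replicate 5 and CNS4Flox replicate 3 it was 62.1% and 65.4%, a difference of -3.28 points in place of -1.54, with p = 0.0857 in the exact permutation test and 0.206 after adjustment. The difference shrank to -0.199 points without CNS4KO replicate 1, to -0.967 without CNS4KO replicate 4 and to -0.260 without CNS4Flox replicate 5, and grew to -2.41 without CNS4KO replicate 5 and -2.45 without CNS4Flox replicate 3. The percent of a library's convergent CDR3s that were convergent in another library too was 23.4% ± 1.49 and 23.7% ± 2.58 (SD, n = 5, exact permutation p = 0.849), and without CNS4KO replicate 5 and CNS4Flox replicate 3 it was 19.4% and 18.1%, the opposite order. Of the 3337 different convergent CDR3s, 2956 (88.6%) were convergent in 1 library, 296 in 2, 62 in 3, 11 in 4, 7 in 5, 2 in 6, 2 in 7 and 1 in 8. Of the 381 that were convergent in at least 2 libraries, 219 were so in both groups, 70 in CNS4KO libraries alone and 92 in CNS4Flox libraries alone. CNS4KO replicate 5 and CNS4Flox replicate 3 had 29 convergent CDR3s in common, against 5 to 27 (median 16) in the other 44 pairs. They were also the 2 libraries with the most convergent CDR3s. As a share the 29 were 5.45% of those of CNS4KO replicate 5 and 5.11% of those of CNS4Flox replicate 3. This was inside the range of the other pairs, 1.64% to 8.73% of the convergent CDR3s of a library. Of the convergent clonotypes, 70 were the same in both libraries, 6.33% of those of CNS4KO replicate 5 and 5.83% of those of CNS4Flox replicate 3. With the clonotypes that the 2 libraries share removed, 472 of 532 and 513 of 568 convergent CDR3s were left.

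There were 12 CDR3s that were convergent in 5 or more libraries, of which 9 used TRBV31 and 8 began with the residues CAWSLG. Of these, 8 are described, since 7 were tied at 5 libraries and the tied ones with the most different sequences over the libraries were taken first, and 7 of the 8 used TRBV31. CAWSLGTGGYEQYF, whose sequences are printed above, was convergent in 8 libraries, 4 of each group, and present in 9. It was written by 12 different sequences over the libraries, of 2359296 that the genetic code allows for it, and 4 of the 12 were seen in 1 library only. Per library it had 2, 3, 3, 4 and 1 sequences in CNS4KO and 0, 2, 4, 2 and 3 in CNS4Flox, with 17 counts in CNS4KO and 18 in CNS4Flox in all. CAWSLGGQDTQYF was present in all 10 libraries and convergent in 7, with 12 sequences, and its most abundant sequence was found in 6 libraries. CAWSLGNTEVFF was convergent in all 5 CNS4KO libraries and in 2 of 5 CNS4Flox libraries, with 10 sequences and 13 and 9 counts in the groups.

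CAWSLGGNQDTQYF and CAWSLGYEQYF were convergent in 6 libraries each, 3 of each group, with 12 and 8 sequences. A sequence of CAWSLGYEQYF was found in 7 libraries, the most for any sequence of these 8 CDR3s. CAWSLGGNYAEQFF (TRBJ2-1) and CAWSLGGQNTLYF (TRBJ2-4) were convergent in 5 libraries each, with 11 and 10 sequences. The exception in V gene was a CDR3 of 14 residues with TRBV1 and TRBJ2-7, which had the most sequences of the 8, 14, of which 11 were seen in 1 library only. It was convergent in 2 CNS4KO and 3 CNS4Flox libraries and had 5 sequences in CNS4Flox replicate 5. All 8 were convergent in both groups, with total counts of 12 to 23 in CNS4KO and 9 to 20 in CNS4Flox, so each rested on few counts per library.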

How the data were processed

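Receptor alpha and beta chains were amplified from Treg RNA with chain primers and template switching, per the labels' protocols. The deposited tables give, per clonotype, a count, the fraction of the library's counts that the authors computed from it, V, D and J names, the CDR3 and its match positions, counted from 0. The build is mm10, per the submitters' processing notes, and the clonotype caller is not given in the sources used here. Gene positions came from RefSeq's GRCm38 table, in which 36 of 36 gene names matched.

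The members and lists were chosen with earlier results of these data known. Numbers at equal depth were hypergeometric expectations. Single values were compared by two-sided exact permutation tests and adjusted over 12 values (Benjamini-Hochberg). V and J counts, 1 per convergent CDR3, were tested with edgeR 4.0.16 (quasi-likelihood, library size the number of members, no TMM), for genes with at least 10 in 5 libraries, and with DESeq2 1.42.0 as an alternative, in R 4.3.3. Other values were computed with Python 3.11.15. On simulated counts, 77.5% of genes doubled in 1 group were recovered among 14 TRBV genes, and 77.5% among 10 TRBJ genes, with at least 1 false call in 17.5% and 10% of those 40 sets each. With no gene changed, 7.5% of TRBV and 12.5% of TRBJ sets held a false call. The simulated spread between libraries was a fixed setting, not estimated from these libraries, and only genes with smaller shares were doubled. A doubling is also larger than any fold change between the groups among the 14 TRBV and 10 TRBJ genes of the main tests. These rates therefore do not give the power for the changes reported. Entries ending in PLYF were counted as TRBJ1-6. Named genes were the 3 with the highest mean share and the 2 with the smallest p, and named CDR3s the 8 convergent in the most libraries and, per group, the 2 with the most sequences and the 2 with the largest share of counts. Ties in the number of libraries were broken by the number of different sequences, then by counts, then by the alphabet, and ties in the number of sequences by counts. V and J genes set beside the other CDR3s outside that rule were named after their values were seen. Alternatives covered counts of 1, 1-base neighbours, depth, carry-over, scaling and libraries left out. Counts limit the precision, since most clonotypes have a count of 1. Alpha-chain entries were left out of the comparisons. The CNS4KO CDR3 that the rule on number of sequences puts first is not reported here.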

Additional observations from a re-analysis of the deposited data

Results flagged for a closer look

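Of 42 groups of 5 libraries examined for a library far from the rest, 3 held one, where chance gives about 5%. Inserted bases of convergent clonotypes averaged 2.68 in CNS4KO replicate 3, and the next CNS4KO library had 2.36. TRBV31 made 11.8% of the convergent CDR3s of CNS4KO replicate 4, and the next CNS4KO library had 18.1%. TRBJ2-7 made 23.0% of the convergent CDR3s of CNS4Flox replicate 4, and the next CNS4Flox library had 28.3%.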

How the results depend on the processing

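No paired analysis was possible because the replicate numbers were given in accession order and pair no libraries. Over 24 results, 432 alternative values were computed, of which 384 kept their direction and side of the threshold, 9 newly passed it, 35 changed direction and 4 were counts that moved. The higher sharing of convergent CDR3s kept its direction and its call in all 20 alternatives, from 27.9 to 54.7 percentage points. The cause of the changes below was not tested.

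All differences are CNS4KO minus CNS4Flox. With clonotypes of count 1 left out, the difference was 0.350 CDR3s at equal counts, -2.13 at equal clonotypes, -2.74 points in the share with 3 or more sequences, 0.104 points in the share of beta counts, 0.336 inserted bases and -3.48 points in CDR3s with differences inside a match. With pairs at least 2 bases apart, it was 0.0100 inserted bases and 0.973 points for convergence in another library. By amino acid sequence alone, it was 0.677 points for presence and 1.87 for convergence in another library. As deposited, without equal depth, it was -37.8 CDR3s and -0.000491 points in the share with 3 or more sequences. The share of distinct clonotypes in convergent CDR3s differed by 0.0719 points, convergence in at least 3 other libraries by 0.441 points, and the percent of clonotypes with a count of 1 by -9.94 points (adjusted p = 0.0476, exact permutation test). Without both CNS4KO replicate 5 and CNS4Flox replicate 3, differences inside a match came to -0.227 points, convergence in another library to 1.27 points the numbers to -52.8 CDR3s at equal counts and 32.6 at equal clonotypes, and the TRBJ2-5 log2 fold change to -0.0371, and by amino acid sequence alone that of TRBJ2-5 was -0.0622. TMM gave 0.0121 for TRBJ2-4. The count of TRBV genes that passed was 1 in place of 0 (TRBV12-1) with TMM, with each clonotype once and with pairs at least 2 bases apart.

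With 1 library left out in turn, the difference ranged from -52.6 to -35.5 CDR3s at equal counts, lowest and with an adjusted exact permutation p of 0.0476 without CNS4KO replicate 5. It ranged from 22.3 to 32.2 at equal clonotypes, highest and with the same adjusted exact p without CNS4KO replicate 3. Each of these passes came with the largest sequence's share at the same unadjusted exact permutation p, which lowers the adjusted value. The largest sequence's share ranged from 2.75 to 3.44 points and the share of beta counts from -0.389 to 0.129 points. Differences inside a match ranged from -0.485 to 1.05 points and convergence in another library from -1.40 to 1.07 points. The TRBV count ranged from 0 to 1, with TRBV12-1 passing without CNS4Flox replicate 4, and the TRBJ2-4 log2 fold change ranged from -0.0682 to 0.0459 and that of TRBJ2-5 from 0.0149 (without CNS4KO replicate 5) to 0.114 (without CNS4KO replicate 1). The possible carry-over filter removed 0 clonotypes. For V and J counts, leaving out counts of 1 left too few convergent CDR3s to pass the minimum, so that alternative gave no value.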

Other observations

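Entries whose CDR3 does not end in one of the 10 beta ends, mostly alpha chains, were read by amino acid sequence alone. Of these CDR3s 15.7% ± 0.675 in CNS4KO and 17.9% ± 0.954 in CNS4Flox (SD, n = 5) were written by 2 or more nucleotide sequences, and they held 36.4% ± 2.47 and 42.7% ± 2.07 of the counts of such entries. Counted the same way, 6.06% ± 0.895 and 6.10% ± 0.646 of beta CDR3s were written by 2 or more sequences. These values were not adjusted for depth and not tested.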
